A study of Mus musculus with 8 samples.

Results

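The genes described here build cholesterol and fatty acids in the cell or control that synthesis. They are 30 genes listed by their function: 18 of the cholesterol synthesis route, 5 that control the SREBP transcription factors, 3 of sterol transport and efflux, and 4 of fatty acid synthesis. All 30 have a row in the deposited table of 53715 mouse genes, and 28 were expressed highly enough to be tested among 13475 genes.

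The RNA came from mouse macrophages labelled Sting-/-, that is, without a working Sting gene of their own, in 8 libraries, 2 for each of 4 transgene groups. STING is the membrane adaptor that starts interferon and NF-κB signalling when cyclic dinucleotides bind it, and its C-terminal tail recruits the downstream kinase. The group no_transgene received no STING, mSTING received mouse STING, dCTT received mouse STING without its C-terminal tail, and zfCTT received mouse STING carrying the tail of zebrafish STING. All 8 libraries were made from cells given 500 µg/ml CMA (10-carboxymethyl-9-acridanone, an agonist of mouse STING) for 4 h, so no library shows the unstimulated state. Every comparison is therefore between transgenes under the same agonist. The labels do not say whether the cells are 1 clone, nor whether a group's libraries are separate cultures. A p-value here therefore rests on how far the 2 libraries of a group differ, pooled over the 4 groups and moderated across genes. That difference may be technical.

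Cholesterol is made from acetyl-CoA through mevalonate, isoprenoids, squalene and lanosterol. When sterols in the endoplasmic reticulum are low, SCAP carries the SREBP precursors to the Golgi, where they are cut into active transcription factors. SREBP-2 mainly drives the cholesterol genes and SREBP-1 the fatty acid genes, while INSIG proteins hold SCAP back when sterols are plentiful. Sterol-sensing nuclear receptors of the LXR family, as partners of RXR, drive export pumps such as ABCA1 and ABCG1. In macrophages these pathways meet innate immunity: interferon signalling is known to restrain sterol synthesis, and sterol flux is known to affect STING itself.

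SREBP-driven promoters typically hold a sterol element beside a CCAAT box, the site of the cofactor NF-Y, and both were looked for in RefSeq promoter windows on GRCm38.p6. A window runs from 250 bases before to 50 bases after a start site, and 23 of the 30 genes matched at least 1 window. The sterol element TCACNCCAC, searched on both strands, was in the window of 1 of 23 genes, Hmgcs1, and in 1.44% of 27025 genes overall. Other spellings of the element were not searched. CCAAT, also searched on both strands, was in a window of 19 of 23 genes, 82.6%, against 41.1% of all genes. Some genes have more than 1 window, and by window the shares were 64.5% of 31 against 37.4% of 32851. These motifs were counted separately, whether or not they overlapped, and a match is a run of letters, not a measured site. The Hmgcs1 stretch is shown because it carries the sterol element, which is in capitals and begins 137 bases before the start site. The other 4 are from the 6 genes that hold a CCAAT box and gave an unadjusted p under 0.05 between zfCTT and no_transgene, reported further on; Cyp51 and Tm7sf2 are not shown. Their capitals mark the CCAAT nearest the start site, or ATTGG where that box lies on the opposite strand. In the Fasn stretch a CCAAT on the gene's own strand overlaps the marked ATTGG and is not marked. Each is read 5′ to 3′ on the gene's strand. The Hmgcs1 stretch lies at chr13:119690189-119690247 on the plus strand, Pmvk at chr3:89454385-89454429 on the plus strand and Mvd at chr8:122443425-122443469 on the minus strand. The Srebf2 stretch lies at chr15:82147114-82147158 on the plus strand and the Fasn stretch at chr11:120824582-120824626 on the minus strand.
Hmgcs1: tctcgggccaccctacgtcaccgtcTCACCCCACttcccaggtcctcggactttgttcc
Pmvk: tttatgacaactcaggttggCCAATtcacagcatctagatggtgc
Mvd: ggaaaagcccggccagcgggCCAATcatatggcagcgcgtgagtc
Srebf2: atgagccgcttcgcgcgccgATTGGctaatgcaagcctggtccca
Fasn: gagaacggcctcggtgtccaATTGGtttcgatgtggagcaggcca

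Values are RPKM as computed by the authors, that is, reads divided by gene length and by library size. Depth, recovered from the steps of the values, ran from 20.1 to 171 M reads, and the 2 zfCTT libraries, at 20.1 and 34.8 M, were among the 3 shallowest. Over all tested genes zfCTT replicate 1 stood apart on the first principal component, and no_transgene replicate 1 with dCTT replicate 1 on the second. Depth and these distances move with some of the results, and their part in the results was not tested. Tmem173, the gene that encodes STING, was at 2.42 to 3.23 RPKM in no_transgene and 10.6 to 22.7 RPKM in the other 6 libraries. Its reads were thus not absent from the libraries labelled as having no STING, and a table with 1 value a gene does not show which exons they came from. The 10 macrophage markers summed to 831 to 1287 RPKM, lower in mSTING replicate 1 and zfCTT replicate 1 than elsewhere. In each library 8 or 9 of the 10 were at 1 RPKM or more. Single markers did not all follow the sum. Fcgr1, Adgre1 and Ptprc were highest in zfCTT replicate 1, Spi1 in mSTING replicate 1, and the rest of the 10 in a no_transgene library. Markers of other cell types summed to at most 1.21 RPKM in any library, and Cd3e, Cd8a, Ly6g, Col3a1 and Dcn were listed at 0 in all 8. In bulk RNA, fewer cells of a type and less RNA per cell cannot be told apart.

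The most abundant of these transcripts per length was Fasn, fatty acid synthase, with a mean of 42.8 RPKM over the 8 libraries, and the least abundant was the cholesterol exporter Abca1, with 0.506 RPKM. The mean was at least 10 RPKM for 12 genes and under 2 RPKM for 5. Read support per gene and library ran from 41 reads upward. Summed over the 30 genes, RPKM was 248 and 267 in no_transgene, 261 and 288 in mSTING, 312 and 268 in dCTT, and 383 and 350 in zfCTT. The 2 zfCTT libraries had the highest sums, and 19 of the 28 tested genes had their highest value in one of them, as did 31.6% of all tested genes. Of these, 13 were highest in zfCTT replicate 1 (25.1% of all) and 6 in replicate 2 (6.52% of all).

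Comparing zfCTT with no_transgene asks what STING with the zebrafish tail does to these transcripts when the agonist is present. On the log2(RPKM + 1) scale 22 of 28 tested genes were higher (45.3% of all genes) and 6 lower in zfCTT, with a median difference of 0.42, where the median over all 13475 genes was -0.04. None of the 28 passed limma's test after Benjamini-Hochberg adjustment over all genes at 0.05, in either direction. Over all genes 0.928% rose and 0.156% fell. The 125 rising and 21 falling genes behind these shares became 2 and 0 without no_transgene replicate 1 or zfCTT replicate 1, 5 and 3 without no_transgene replicate 2, 10 and 0 without dCTT replicate 1, 6 and 0 without dCTT replicate 2, and 40 and 9 without zfCTT replicate 2; without an mSTING library they were 139 and 4 or 140 and 4. At an unadjusted p under 0.05 there were 12 of the 28, against 13.4% of all genes. Voom on recovered reads also called 0 of them, against 0.49% of all genes. Both zfCTT libraries lay above both no_transgene libraries for 16 of the 28 (18.8% of all genes), and below for 2 (20.8% of all genes). One of the 28, Hsd17b7, passed the expression filter only through its zfCTT libraries. Nsdhl and Abca1 were not tested.

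**Figure D1:**
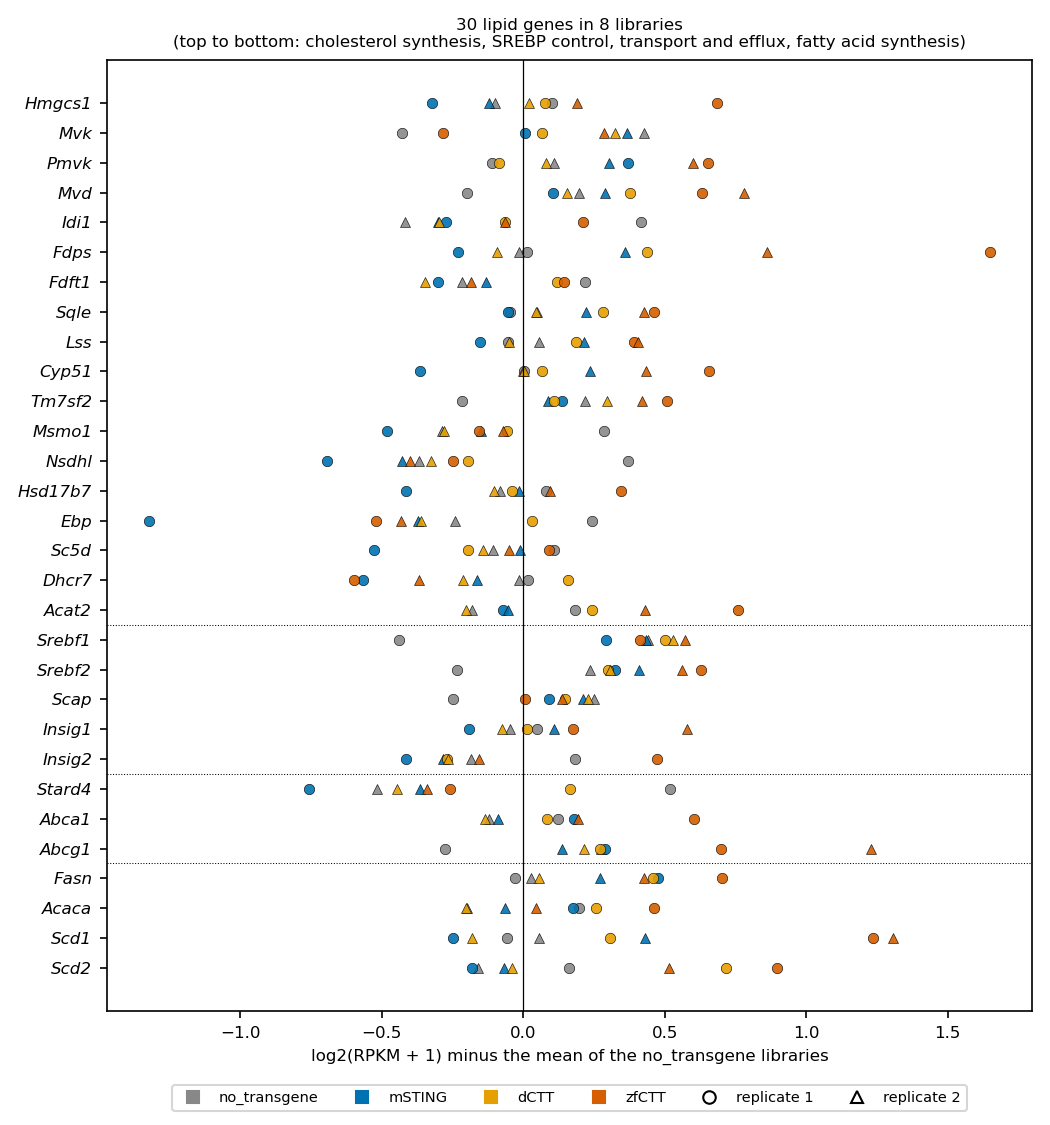
Difference of each of the 30 genes in each library from the mean of the 2 no_transgene libraries, on the log2(RPKM + 1) scale (horizontal axis). Genes are listed by role, colours mark the 4 groups, circles are replicate 1 and triangles replicate 2; Fdps in zfCTT replicate 1 and Scd1 in both zfCTT libraries lie farthest to the right, and Ebp in mSTING replicate 1 farthest to the left.

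The fatty acid genes had the largest median of the 4 roles, 0.64 over 4 genes. Scd1, the stearoyl-CoA desaturase that puts the first double bond into saturated fatty acids (chromosome 19, 44394455 to 44407879, minus strand), was at 2.07 and 2.32 RPKM in no_transgene, 1.68 and 3.29 RPKM in mSTING, 2.94 and 1.82 RPKM in dCTT, and 6.52 and 6.90 RPKM in zfCTT. Both zfCTT libraries stood clear of the other 6, which overlapped one another. How many of all genes have both zfCTT libraries above the other 6 was not counted, here or for the genes below. The zfCTT mean was 3.06 times that of no_transgene, a log2 difference of 1.27 ± 0.27 (SE; 95% interval 0.63 to 1.92), with an adjusted p of 0.0949. It missed the threshold over all genes, and passed it at an adjusted p of 0.0367 when protein-coding genes alone were tested.

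Scd2, the second desaturase, was at 21.1 and 16.7 RPKM in no_transgene, 16.4 and 17.9 RPKM in mSTING, 31.5 and 18.2 RPKM in dCTT, and 35.8 and 27.3 RPKM in zfCTT. Here dCTT replicate 1 fell inside the zfCTT range, and the log2 difference of zfCTT from no_transgene was 0.71 ± 0.29 (adjusted p = 0.366). Fasn, which assembles palmitate, was at 33.4 and 34.8 RPKM in no_transgene, 47.8 and 41.3 RPKM in mSTING, 47.3 and 35.5 RPKM in dCTT, and 56.2 and 46.1 RPKM in zfCTT. Its no_transgene libraries were below the other 6, and the zfCTT difference was 0.57 ± 0.21 (adjusted p = 0.320). Acaca, acetyl-CoA carboxylase, which supplies malonyl-CoA to FASN, ranged from 1.55 to 3.05 RPKM with overlapping groups. About 30.4% of its 50-base stretches also occur in another gene model, so its value is uncertain.

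In the cholesterol route, 12 of 17 tested genes were higher in zfCTT than in no_transgene (45.3% of all genes), with a median of 0.40. The sum over the 18 genes was 173 and 151 RPKM in zfCTT against 117 and 117 RPKM in no_transgene. The first steps join acetyl-CoA units. Acat2, cytosolic acetoacetyl-CoA thiolase, was at 14.3 and 10.9 RPKM in no_transgene and 21.8 and 17.1 RPKM in zfCTT, although 39.1% of its 50-base stretches occur in other gene models, chiefly Acat3. Hmgcs1, HMG-CoA synthase, was at 2.98 and 2.46 RPKM in no_transgene, 1.97 and 2.41 RPKM in mSTING, 2.91 and 2.76 RPKM in dCTT, and 4.96 and 3.23 RPKM in zfCTT. Its zfCTT libraries were the highest of the 8, with a difference of 0.44 ± 0.21 (adjusted p = 0.435).

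The mevalonate kinases differed from each other. Mvk, mevalonate kinase, was at 7.47 and 14.3 RPKM within no_transgene alone, a wider gap than between most groups, and its zfCTT values of 8.35 and 12.9 RPKM lay inside it. Pmvk, phosphomevalonate kinase (chromosome 3, 89454541 to 89469013, plus strand), was at 15.2 and 17.9 RPKM in no_transgene, 21.6 and 20.6 RPKM in mSTING, 15.5 and 17.5 RPKM in dCTT, and 26.5 and 25.5 RPKM in zfCTT. Its groups fell into 3 levels, with dCTT among no_transgene, mSTING above both and zfCTT above mSTING. The zfCTT difference from no_transgene was 0.63 ± 0.16 (adjusted p = 0.162).

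Mvd, the decarboxylase that yields isopentenyl diphosphate, was at 8.87 and 11.98 RPKM in no_transgene, 11.2 and 12.8 RPKM in mSTING, 13.7 and 11.6 RPKM in dCTT, and 16.6 and 18.4 RPKM in zfCTT. Both zfCTT libraries exceeded the other 6, a difference of 0.71 ± 0.20 (adjusted p = 0.192). Idi1, the isomerase of that product, ranged from 1.57 to 3.57 RPKM, with its extremes both in no_transgene.

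Fdps, farnesyl diphosphate synthase (chromosome 3, 89093588 to 89101959, minus strand), stands where the route branches to prenylated proteins. It was at 12.5 and 12.2 RPKM in no_transgene, 10.4 and 16.1 RPKM in mSTING, 17.0 and 11.5 RPKM in dCTT, and 40.8 and 23.2 RPKM in zfCTT. Both zfCTT libraries were above the other 6 but far from each other. The zfCTT mean was 2.60 times that of no_transgene, a log2 difference of 1.26 ± 0.34 (95% interval 0.44 to 2.07; adjusted p = 0.174), and 0.86 without zfCTT replicate 1. Another gene model, Gm43738, covers 26.7% of its exonic bases on the same strand, which makes its count uncertain.

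**Figure D2:**
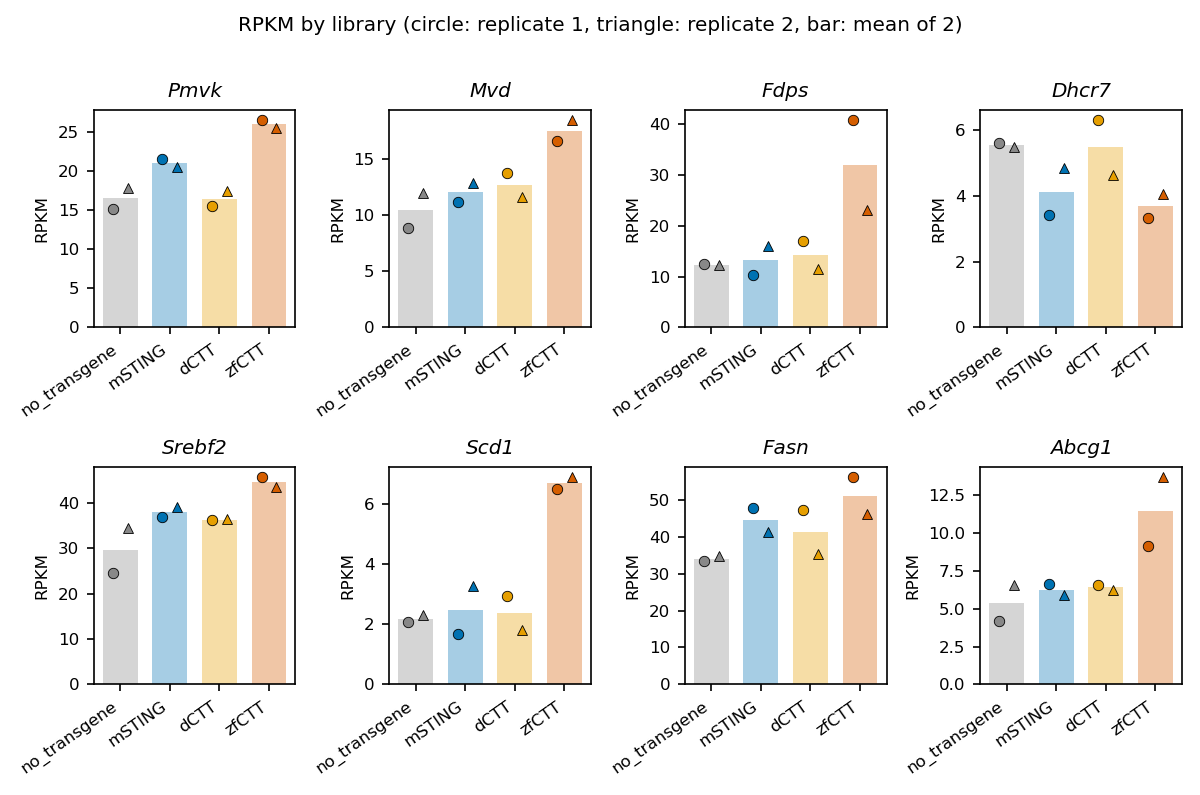
RPKM (vertical axes, each starting at 0) of 8 of the genes by group (horizontal axes); circles are replicate 1, triangles replicate 2 and bars the mean of the 2 libraries. Both zfCTT points lie above all others for Pmvk, Mvd, Fdps, Srebf2, Scd1 and Abcg1, and below both no_transgene points for Dhcr7. The share of all genes with both zfCTT points above all others was not counted.

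Next come the genes that turn farnesyl units into sterols. Squalene epoxidase, Sqle, a slow step of the route, was at 3.55 and 3.86 RPKM in no_transgene and 5.48 and 5.32 RPKM in zfCTT, a difference of 0.44 ± 0.17 (adjusted p = 0.341). Lanosterol synthase, Lss, was at 2.37 and 2.64 RPKM in no_transgene and 3.60 and 3.64 RPKM in zfCTT. Cyp51, the lanosterol demethylase, was at 2.57 and 2.56 RPKM in no_transgene and 4.62 and 3.82 RPKM in zfCTT. For all 3 genes both zfCTT libraries were the highest of the 8, a trait whose share over all genes was not counted. Tm7sf2, a sterol reductase, was at 7.48 and 10.5 RPKM against 13.0 and 12.2 RPKM in zfCTT. Squalene synthase, Fdft1, did not share this pattern, at 3.98 and 2.68 RPKM against 3.73 and 2.77 RPKM. Other gene models cover 12.1% of the exonic bases of Tm7sf2 and Hmgcs1, 13.2% of Scap and 18.3% of Fdft1, which makes their counts uncertain too.

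The late steps that remove methyl groups and shift the double bond showed no common direction. Msmo1, the C4-methyl oxidase, and Nsdhl, its decarboxylating partner, were both highest in no_transgene replicate 1, at 2.31 and 1.63 RPKM. Hsd17b7, a ketosteroid reductase of the same complex, ranged from 0.485 to 1.52 RPKM, and Sc5d, a sterol desaturase, from 1.69 to 3.17 RPKM. Only Ebp and Dhcr7 had both zfCTT libraries below both no_transgene libraries. Dhcr7, which makes cholesterol from 7-dehydrocholesterol, was at 5.62 and 5.48 RPKM in no_transgene, 3.42 and 4.84 RPKM in mSTING, 6.30 and 4.64 RPKM in dCTT, and 3.33 and 4.07 RPKM in zfCTT. Its zfCTT mean was 0.666 of no_transgene, a difference of -0.48 ± 0.21 (adjusted p = 0.394), and its mSTING libraries were low as well. Ebp, the sterol isomerase, was at 18.1 and 12.7 RPKM in no_transgene, 5.45 and 11.5 RPKM in mSTING, 15.5 and 11.6 RPKM in dCTT, and 10.3 and 11.0 RPKM in zfCTT.

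All 5 genes of SREBP control had a positive zfCTT difference from no_transgene (45.3% of all genes), with a median of 0.38. Both zfCTT libraries lay above both no_transgene libraries for 2 of them (18.8% of all genes), and the other 3 overlapped between the groups. Srebf2, which encodes SREBP-2 (chromosome 15, 82147181 to 82205379, plus strand), was at 24.6 and 34.5 RPKM in no_transgene, 36.8 and 39.1 RPKM in mSTING, 36.2 and 36.4 RPKM in dCTT, and 45.6 and 43.6 RPKM in zfCTT. No_transgene replicate 1 was the lowest and the zfCTT libraries the highest. The zfCTT difference was 0.59 ± 0.20 (adjusted p = 0.275), and 0.36 without no_transgene replicate 1. Srebf1, the SREBP-1 gene, was at 10.7 RPKM in no_transgene replicate 1 and at 18.4 to 22.6 RPKM in the other 7 libraries, so its low value belonged to 1 library. Scap, the escort protein, was lowest in that same library, at 15.4 RPKM against 18.6 to 22.2 RPKM. Insig1, whose protein holds SCAP back, was at 7.56 and 10.3 RPKM in zfCTT and between 5.63 and 7.17 RPKM elsewhere. The zfCTT difference of Insig1 from no_transgene was 0.38 ± 0.20 (limma, adjusted p = 0.481). Its relative Insig2 was at most 2.31 RPKM, in zfCTT replicate 1.

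Of the transport genes, Abcg1, the pump that passes cholesterol to HDL (chromosome 17, 31057675 to 31117988, plus strand), was at 4.17 and 6.58 RPKM in no_transgene, 6.64 and 5.89 RPKM in mSTING, 6.56 and 6.27 RPKM in dCTT, and 9.16 and 13.7 RPKM in zfCTT. Both zfCTT libraries were above the other 6. The zfCTT difference was 0.97 ± 0.26 (95% interval 0.35 to 1.58; adjusted p = 0.165). Abca1, the pump that loads lipid-poor apolipoprotein, was at 0.505 and 0.271 RPKM in no_transgene and 1.10 and 0.582 RPKM in zfCTT, too low to be tested. Stard4, a carrier of cholesterol between membranes, was highest in no_transgene replicate 1, at 8.26 RPKM, and at 2.83 to 6.25 RPKM elsewhere.

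Against mSTING, which asks what exchanging the mouse tail for the zebrafish one changes, 25 of 28 genes were higher in zfCTT (51.7% of all genes), with a median of 0.36 beside 0.01 over all genes. None passed limma's test, while over all genes 0.111% rose and 0.00742% fell. The 15 rising genes and 1 falling gene became 5 and 0 without either no_transgene library, and 0 and 0 without any other single library. At an unadjusted p under 0.05 there were 8, against 11% of all genes. Voom called 0, against 0.0594% of all genes. Both zfCTT libraries were above both mSTING libraries for 18 of 28 (24.9% of all genes) and below for 0 (24.4% of all genes). The largest differences were Fdps, 1.19 ± 0.34 (adjusted p = 0.381), and Scd1, 1.18 ± 0.27 (adjusted p = 0.277). Scd2 differed by 0.83, Abcg1 by 0.75 and Hmgcs1 by 0.66. For Hmgcs1 the mSTING libraries were the lowest of the 8.

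Against dCTT, the STING without a tail, 22 of 28 genes were higher in zfCTT (47.2% of all genes), with a median of 0.29 beside -0.02 over all genes. None passed limma's test, while 0.913% of all genes rose and 0.171% fell. The 123 rising and 23 falling genes became 1 and 0 without either dCTT library, 2 and 0 without zfCTT replicate 1, 57 and 26 without zfCTT replicate 2, 25 and 1 when the first no_transgene library was left out, 19 and 0 when the second was, and 138 and 10 or 136 and 10 without an mSTING library. At an unadjusted p under 0.05 there were 5, against 12.7% of all genes. Voom called 0, against 1.31% of all genes. Both zfCTT libraries were above both dCTT libraries for 17 of 28 (20.1% of all genes) and below for 3 (24.7% of all genes). Scd1 differed by 1.21 ± 0.27 (95% interval 0.56 to 1.86; adjusted p = 0.114), and passed at 0.0462 among protein-coding genes alone. Fdps differed by 1.08, Abcg1 by 0.72 and Pmvk by 0.63. The median of the 28 was 0.17 without zfCTT replicate 1. The 3 comparisons with zfCTT share its 2 libraries, so the values stand side by side and are not independent of each other.

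**Figure D3:**
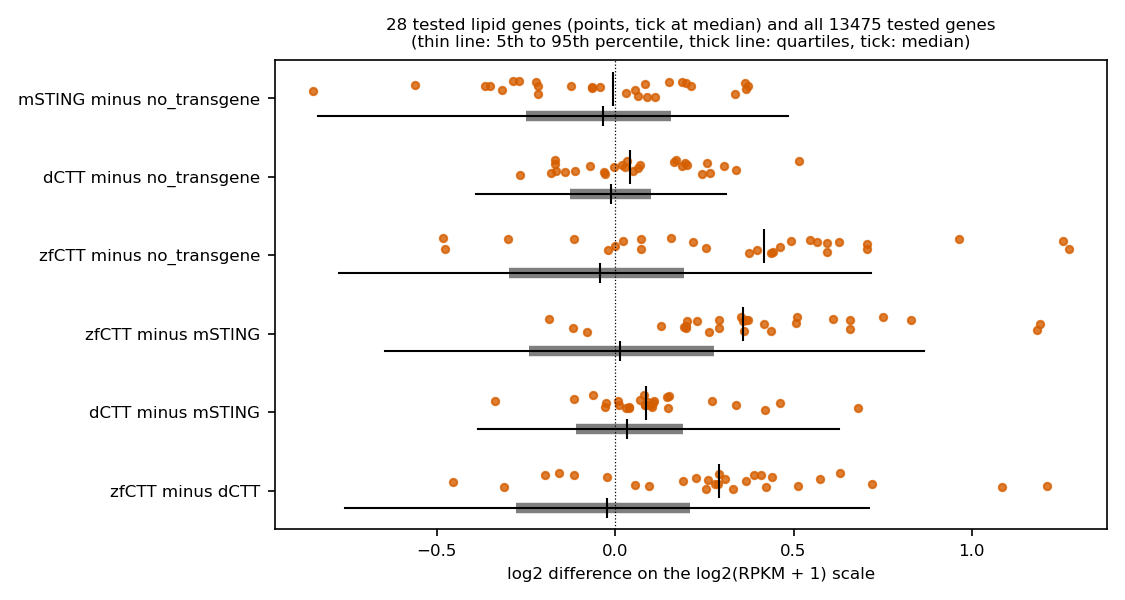
Log2 differences on the log2(RPKM + 1) scale (horizontal axis) in the 6 comparisons (vertical axis); points are the 28 tested genes with a tick at their median, and the lines below give the 5th to 95th percentile, quartiles and median of all 13475 tested genes. The medians of the 28 are 0.42, 0.36 and 0.29 in the comparisons with zfCTT, and from -0.01 to 0.09 in the other 3.

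Between mSTING and no_transgene, the comparison that isolates mouse STING, 14 of 28 genes were higher (45.4% of all genes) and 14 lower, with a median of -0.01 beside -0.04 over all genes. None passed limma's test, as for all genes (0% in each direction), and 1 had an unadjusted p under 0.05, against 3.47% of all genes. Voom called 0 (0% of all genes). Both mSTING libraries were above both no_transgene libraries for 3 (15.3% of all genes) and below for 4 (17% of all genes). The gene under 0.05 was Ebp, at -0.85 ± 0.34 (adjusted p = 0.840), where mSTING replicate 1 at 5.45 RPKM was the lowest library. Of the 28 tested genes 14 had their lowest value in mSTING replicate 1, as did 20.7% of all tested genes. Srebf2, Fasn and Pmvk were higher in both mSTING libraries than in both no_transgene libraries, by 0.37, 0.37 and 0.34. The 95% interval for Srebf2 was -0.11 to 0.84.

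Between dCTT and no_transgene, 17 of 28 genes were higher (47% of all genes), with a median of 0.04 beside -0.01. None passed limma's test (0% of all genes in each direction), and none had an unadjusted p under 0.05, against 0.267% of all genes. Voom called 0 (0% of all genes). Both dCTT libraries were above both no_transgene libraries for 4 (7.75% of all genes) and below for 2 (6.69% of all genes). The 95% interval was -0.58 to 0.71 for Scd1 and -0.64 to 0.98 for Fdps. Between dCTT and mSTING, 23 of 28 were higher in dCTT (56.4% of all genes), with a median of 0.09 beside 0.03. None passed limma's test (0% of all genes), had an unadjusted p under 0.05 (2.49% of all genes) or was called by voom (0% of all genes). Both dCTT libraries were above both mSTING libraries for 5 (16.2% of all genes) and below for 2 (12.8% of all genes).

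Across the 8 libraries, Sqle and Lss varied most closely together, with a Pearson r of 0.976 on the log2 scale, and Lss and Scd1 followed at 0.965. The lowest r was -0.919, between Idi1 and Scap. Sqle had the highest median r with the other genes, 0.691, and Dhcr7 the lowest, -0.224. These are descriptions over 8 libraries that share their group structure and differ in depth. Between replicates, the median gap of these genes was 0.23 on the log2 scale, beside 0.26 over all tested genes.

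Other genes of the same pathways came from lists drawn up by function. Of 8 further sterol genes tested, 7 were higher in zfCTT than in no_transgene (45.3% of all genes), with a median of 0.33. None of the 8 passed, where 0.928% of all genes rose and 0.156% fell. Rdh11, a retinol dehydrogenase controlled by SREBP, was at 2.64 and 2.53 RPKM in no_transgene and 4.69 and 3.40 RPKM in zfCTT. Of 8 genes listed under SREBP processing, 3 were higher in zfCTT (45.3% of all genes) and 5 lower, with a median of -0.04. Of these 8, 0 passed, where 0.928% of all genes rose and 0.156% fell. Mbtps1, the site-1 protease that cuts SREBP, was at 8.54 and 9.85 RPKM in no_transgene and 13.7 and 9.93 RPKM in zfCTT. Its difference was 0.32, with zfCTT replicate 2 close to no_transgene replicate 2. Fbxw7, the ubiquitin ligase subunit that removes active SREBP, differed by 0.25, and Trim35 by -0.45.

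Of 16 further genes of fatty acid and triglyceride synthesis, 9 were higher (45.3% of all genes), with a median of 0.05. Of the 16, 0 passed, where 0.928% of all genes rose and 0.156% fell. Acsl1, which activates long-chain fatty acids, was at 2.43 and 1.57 RPKM in no_transgene, 1.56 and 1.85 RPKM in mSTING, 1.83 and 1.64 RPKM in dCTT, and 8.64 and 4.55 RPKM in zfCTT. Both zfCTT libraries were above the other 6, a difference of 1.30 ± 0.29 from no_transgene (adjusted p = 0.106). Its relative Acsl4 differed by 0.43, and the desaturase Fads1 by -0.29.

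Of 18 further genes of LXR signalling and cholesterol handling tested, 14 were lower in zfCTT than in no_transgene (54.7% of all genes), with a median of -0.21. Of the 18, 1 fell, Rxra (0.156% of all genes). That list does not hold Abca1, Abcg1 and Srebf1, known LXR targets described above, whose zfCTT means were higher than those of no_transgene. Rxra encodes RXR alpha, a partner of LXR and many other nuclear receptors. It was at 1.65 and 2.40 RPKM in no_transgene, 0.224 and 0.262 RPKM in mSTING, 2.07 and 2.37 RPKM in dCTT, and 0.137 and 0.200 RPKM in zfCTT. The 8 libraries fell into 2 sets, with mSTING and zfCTT, the groups whose STING has a tail, far below no_transgene and dCTT. The zfCTT mean was 0.0832 of no_transgene and the mSTING mean 0.120 of it.

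For Rxra the difference of zfCTT was -1.36 ± 0.18 from no_transgene (limma, adjusted p = 0.0318) and -1.46 ± 0.18 from dCTT (adjusted p = 0.0254). The mSTING difference from no_transgene was of like size, -1.27 ± 0.18, but had an adjusted p of 0.430, and zfCTT differed from mSTING by -0.09. Support in zfCTT was 15 and 38 reads. Rxra passed the expression filter only through its no_transgene and dCTT libraries, where it is high, so its calls are not independent of that filter. The call against no_transgene was lost without each of the 8 libraries in turn and in some other settings of the processing. It was kept in 6 of the 18 settings in which Rxra was tested. The call against dCTT was lost without no_transgene replicate 2, without any single dCTT or zfCTT library and in some other settings. It was kept in 10 of the 18. The related receptor gene Rxrb was at 26.2 to 37.0 RPKM, and of the LXR genes Nr1h2 was at 13.2 to 27.2 RPKM and Nr1h3 at 0.129 to 0.278 RPKM.

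**Figure D4:**
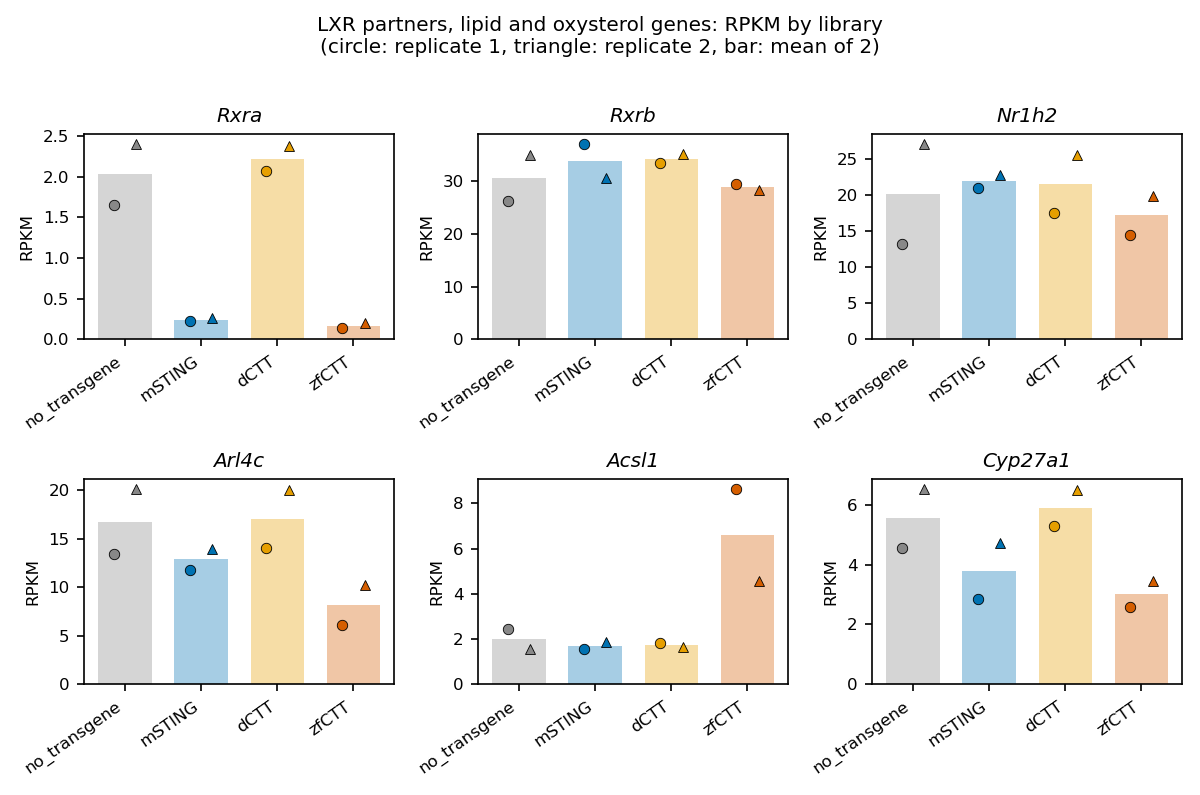
RPKM (vertical axes, each starting at 0) of Rxra, Rxrb, Nr1h2, Arl4c, Acsl1 and Cyp27a1 by group (horizontal axes); circles are replicate 1, triangles replicate 2 and bars the mean of the 2 libraries. Rxra is at most 0.262 RPKM in all 4 mSTING and zfCTT libraries, and Acsl1 is highest in both zfCTT libraries.

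Other genes of that list did not pass. Arl4c, a small GTPase induced by LXR, was at 13.4 and 20.1 RPKM in no_transgene and 6.13 and 10.2 RPKM in zfCTT, a difference of -0.96 ± 0.31 (adjusted p = 0.255). The scavenger receptor gene Cd36 differed by -0.67 (adjusted p = 0.295). Of the oxysterol enzymes, 2 of 6 were tested and both were lower in zfCTT (54.7% of all genes). Cyp27a1, which makes 27-hydroxycholesterol, differed by -0.69 ± 0.26 (limma, adjusted p = 0.338), and Hsd3b7, of bile acid synthesis, by -0.75.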

How the data were processed

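The authors deposited 1 table of RPKM for 53715 genes in 8 libraries of polyadenylated RNA, single-end. Per the submitters' processing notes, cutadapt 1.16 and HISAT2 2.1.0 were used, with GRCm38 and mm10 as builds; their roles, the read counter, the annotation and strandedness were not given in the sources used here. Groups came from the transgene labels.

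Symbols and exon lengths, found for 53620 genes, and coordinates are from GENCODE on GRCm38. Depth was recovered from the steps of the values, of which 94.3% to 95.5% were whole within 0.05 of a read. RPKM are not counts, so limma 3.58.1 (R 4.3.3) tested log2(RPKM + 1) for genes at 1 RPKM or more in at least 2 libraries, with all 8 in 1 fit (4 residual degrees of freedom), two-sided, with Benjamini-Hochberg adjustment at 0.05 within each of 6 contrasts. Log differences understate changes of low genes. Errors are SE from that fit, with 2 libraries a group, and their spread is pooled over the groups and moderated across genes. The 95% intervals use 6.61 degrees of freedom, which include those added by moderation. Voom (limma) on recovered reads, with median-ratio size factors, was an alternative. The fit was tested on simulated data.

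The genes and lists were chosen with earlier results of these data known. All 30 genes are named; of the wider lists, those past the threshold and the 3 with the smallest p between zfCTT and no_transgene. Some genes this rule picks are not reported here.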

Additional observations from a re-analysis of the deposited data

How the results depend on the processing

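Across 19 settings (pseudocounts, filters, scalings, voom, fits on 2 groups and left-out libraries among them) the number of lipid genes that rose or fell stayed at 0 in each of the 6 comparisons, except that Scd1 rose with protein-coding genes alone, 1 gene in zfCTT against no_transgene and 1 in zfCTT against dCTT. That setting tests fewer genes, moderates the spread over those genes alone, and left the Scd1 differences at 1.27 and 1.21. It called 3.75% and 3.68% of its genes in these 2 comparisons, against 1.08% in each in the main fit. Leaving out each library in turn, the median of the 28 genes ranged from 0.38 to 0.46 in zfCTT against no_transgene, 0.28 to 0.52 against mSTING and 0.17 to 0.41 against dCTT. It ranged from -0.19 to 0.10 in mSTING against no_transgene, -0.06 to 0.15 in dCTT against no_transgene and -0.02 to 0.20 in dCTT against mSTING; these 3 changed sign. Single genes were followed for 28 results, chosen in these data for an unadjusted p under 0.05 among the lipid genes or a call in the wider lists. Of their 523 values over the settings, 501 kept their direction and side of the threshold, 20 were Rxra losing its call and 2 were Scd1 gaining one. All results but those of Rxra were uncalled at the start, so most of the 501 stayed uncalled, which shows little about stability.

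With the replicate number as a block, 0 lipid genes passed in each comparison and the medians were as before, 0.42 for zfCTT against no_transgene. Over all genes, 298 rose and 134 fell in that comparison with the block, against 125 and 21 without it, 38 and 6 against 15 and 1 in zfCTT against mSTING, and 284 and 125 against 123 and 23 in zfCTT against dCTT. The labels do not say that a number pairs libraries, and replicate differences correlated across genes at 0.0318 to 0.762 between groups. With 2 libraries a group and the shallowest in zfCTT, low genes such as Abca1, Nsdhl and Hsd17b7 are the least certain.

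The counts over all genes, beside which the lipid genes were read, moved as well. In zfCTT against no_transgene they were 271 rising and 83 falling with protein-coding genes alone, 64 and 2 with voom, 58 and 6 at a mean of at least 5 RPKM, 34 and 0 in a fit of the 2 groups, 23 and 11 with no filter, and 0 and 0 without both no_transgene replicate 1 and dCTT replicate 1. Over the settings, 0 to 54 genes rose in zfCTT against mSTING and 0 to 284 in zfCTT against dCTT. At the rates of all genes few or no calls among 28 genes would be made, so a count that stayed at 0 shows little about stability.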

Other observations

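The following 3 genes of cholesterol storage and oxysterol synthesis were chosen after their values were seen. Nceh1, which frees cholesterol from its esters, was at 2.52 and 7.02 RPKM in no_transgene, 2.43 and 6.42 RPKM in mSTING, 2.28 and 6.05 RPKM in dCTT, and 3.17 and 6.50 RPKM in zfCTT, with replicate 1 the lower in all 4 groups. Soat1, which esterifies cholesterol, was at 7.54 RPKM in no_transgene replicate 1 and at 3.41 to 5.05 RPKM in the other 7 libraries. Ch25h, the interferon-inducible enzyme that makes 25-hydroxycholesterol, had 10 reads in zfCTT replicate 1, the shallowest library, at 0.369 RPKM. In the other libraries it had 0 to 5 reads, at most 0.042 RPKM, and it was too low to be tested.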
